A study of Mus musculus with 24 samples.

Results

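Matrix metalloproteinases and their tissue inhibitors were followed through ageing of the mouse inner ear and through TNF-α treatment and RBM25 knockdown of cochlear organoids. The set has 10 genes, the proteases Mmp2, Mmp3, Mmp9, Mmp11, Mmp13, Mmp14 and Mmp15 and the inhibitors Timp1, Timp2 and Timp3, picked by name from the 26373 genes listed in either count table. Each of the 10 had a row in both tables. Matrix metalloproteinases are zinc-dependent endopeptidases that cut collagens, proteoglycans and other proteins of the extracellular matrix, and most of them are secreted as inactive pro-enzymes. Activation proceeds in cascades: MMP14, a membrane-anchored collagenase, activates pro-MMP2 on the cell surface in a complex with TIMP2, and MMP3 (stromelysin-1) can activate pro-MMP9. The tissue inhibitors (TIMPs) occupy the active site of the proteases. The cochlea is rich in matrix structures, among them the tectorial and basilar membranes and the spiral ligament.

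The inner ear libraries came from untreated male C57BL6/J mice, wild type by label, of 3, 11 and 20 months, with 4 mice per age. They hold the soft tissue left after the bone was removed, so cochlear and vestibular cells are mixed. The organoids were grown from cochlear epithelia of newborn mice, expanded in growth factors and then differentiated, in 4 groups of 3 libraries: TNF-α with RBM25 knockdown, RBM25 knockdown alone, TNF-α alone, and untreated control. All carry the genotype label wild type, the knockdown was by lentivirus, and the titles call it KO. RBM25 is an RNA-binding protein with a role in splicing. Whether controls received a vector, and how much TNF-α was used and for how long, is not given here. Nothing states that the 3 organoid libraries of a group are separate cultures, so p-values there measure the spread between these libraries, which may be technical. Levels are given as CPM (counts per 1000000, with library sizes scaled by TMM), changes as fitted log2 fold changes from edgeR's quasi-likelihood test, and a gene is called changed where its p adjusted over all genes tested is under 0.05. Library totals were 30599012 to 38451292 counts in the inner ear and 33802411 to 37048422 in the organoids.

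The labels were checked first. Rbm25 fell in knockdown organoids to 94.6 ± 2.14 CPM, against 145 ± 2.93 CPM in controls (SD, n = 3 each), a log2 fold change of -0.61 (SE 0.061, edgeR adjusted p = 1.01e-07). With TNF-α present it fell to 111 ± 10.0 CPM in knockdown organoids, against 162 ± 11.6 CPM in TNF organoids (-0.55, edgeR adjusted p = 4.61e-07). Rbm25 was itself called higher with TNF-α, by 0.16 over control (edgeR adjusted p = 0.0315) and by 0.23 in knockdown organoids (0.00471). The call over control was lost without control replicate 1 or 3 or TNF replicate 2 or 3. The interaction for Rbm25 did not pass (0.066, edgeR adjusted p = 0.683). Tnf itself had 132 counts over the TNF libraries and 0 over the control libraries, at least 43.1-fold higher against a floor of 3 counts over the group. It had 207 counts over the knockdown-plus-TNF libraries and 0 over the knockdown libraries, at least 67.2-fold higher. Hair cell markers summed to 159 to 271 CPM at 3 months, 147 to 205 at 11 months and 102 to 198 at 20 months, and all 8 of them were detected in inner ear and organoids alike. In the organoids the hair cell sum was 214 to 287 CPM with knockdown plus TNF-α, 337 to 485 with knockdown, 111 to 151 with TNF-α and 145 to 161 in controls, while the supporting cell sum was 2733 to 2973 CPM with knockdown plus TNF-α, 5728 to 5900 with knockdown, 2014 to 2507 with TNF-α and 6090 to 6414 in controls. The chondrocyte sum was 105.8 to 150.9 CPM with knockdown plus TNF-α, 179 to 467 with knockdown, 25.4 to 38.4 with TNF-α and 49.6 to 56.0 in controls. The fibroblast sum was 592 to 878 CPM with knockdown plus TNF-α, 796 to 948 with knockdown, 1023 to 1295 with TNF-α and 1452 to 1483 in controls. These marker sums moved with the organoid groups, and their part in the results below was not tested. In bulk RNA, fewer cells of a type and less RNA per cell cannot be told apart.

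Mmp3 and Mmp13 lie in a cluster of metalloproteinase genes on mouse chromosome 9, together with Mmp7, Mmp8, Mmp10, Mmp12, Mmp20 and Mmp27 (mm10, GRCm38.p6). Mmp3 spans chr9:7445822-7455975 and Mmp13 spans chr9:7272514-7283333, both on the plus strand. They are the stromelysin-1 and the main rodent collagenase, and both are textbook targets of AP-1, a transcription factor of the Fos and Jun families. Their upstream sequences are shown because the largest protease changes in the ageing ear (Mmp13) and on adding the knockdown to TNF-α (Mmp3) were theirs. Of the 10 genes, 8 had a RefSeq promoter entry (all but Mmp2 and Mmp9). The 250 bases before the annotated start were searched on both strands for the AP-1 motif TGANTCA and for the NF-kB consensus. The AP-1 motif was found in Mmp3 and Mmp13 among the 8, and it occurs in 6.75% of all 32851 promoters of the same length. The NF-kB consensus was found in none of the 8 and occurs in 7.25% of all promoters. A match is a stretch of letters in this window and was not measured as a bound site. The windows are chr9:7445572-7445821 for Mmp3 and chr9:7272264-7272513 for Mmp13 (RefSeq, GRCm38.p6, plus strand), with the AP-1 match in capitals. It lies at -46 to -40 in Mmp3 and at -35 to -29 in Mmp13, counted from the annotated start.
Mmp3: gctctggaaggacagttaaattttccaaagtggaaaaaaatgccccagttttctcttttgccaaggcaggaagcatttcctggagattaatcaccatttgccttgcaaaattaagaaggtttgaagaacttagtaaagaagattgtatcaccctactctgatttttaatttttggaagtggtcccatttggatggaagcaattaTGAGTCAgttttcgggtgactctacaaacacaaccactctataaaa
Mmp13: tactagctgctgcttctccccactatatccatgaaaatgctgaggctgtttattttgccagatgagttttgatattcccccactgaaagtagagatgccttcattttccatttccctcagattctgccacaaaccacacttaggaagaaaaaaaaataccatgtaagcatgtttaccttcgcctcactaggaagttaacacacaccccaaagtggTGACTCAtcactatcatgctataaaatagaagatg

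The 2 settings differed in which genes dominated (FPKM, the authors' length- and depth-scaled values, which allow levels of genes to be set side by side). In the inner ear the inhibitors were on top at every age. At 20 months Timp3 averaged 161 ± 20.0 FPKM and Timp2 146 ± 20.3 FPKM (SD, n = 4), and the ranges of this pair overlapped. Mmp14 followed at 44.2 ± 1.00 FPKM, Mmp15 at 33.3 ± 0.279 and Mmp2 at 17.3 ± 3.00, each apart from its neighbours at that age, while Mmp14 and Mmp15 overlapped at 3 and at 11 months. Timp1, Mmp11, Mmp13, Mmp9 and Mmp3 came below, with Mmp3 the lowest at each age, at 0.485 ± 0.252 FPKM at 20 months. In control organoids the membrane-anchored proteases led: Mmp15 averaged 139.9 ± 3.36 FPKM and Mmp14 139 ± 1.36 FPKM (SD, n = 3), overlapping, ahead of Timp2 at 92.3 ± 2.51 FPKM. With TNF-α alone Mmp15 and Mmp14 again led and overlapped. In both knockdown groups Timp2 came first, at 155 ± 7.62 FPKM with knockdown plus TNF-α, where it overlapped Mmp14 (150.3 ± 8.72), and at 217 ± 20.1 FPKM with knockdown alone, where it did not (176 ± 0.568).

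**Figure D1:**
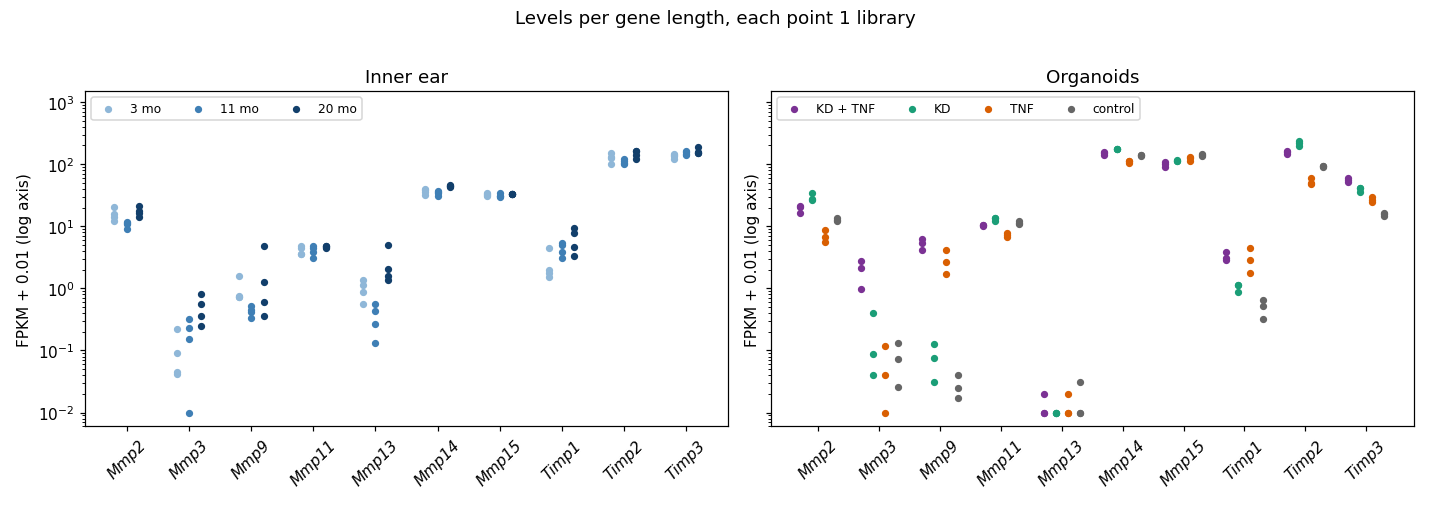
Level of each gene per gene length (FPKM + 0.01, log axis) in inner ear libraries at 3, 11 and 20 months (left) and in organoid libraries with knockdown plus TNF, knockdown, TNF and control (right), each point 1 library. Timp3 and Timp2 lie highest in the ear, Mmp14, Mmp15 and Timp2 in the organoids, and Mmp13 lies near 0 in all organoid groups.

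The summed FPKM of the 3 inhibitors over that of the 7 proteases describes the same contrast. It averaged 2.92 ± 0.210 at 3 months, 3.26 ± 0.224 at 11 months and 3.01 ± 0.304 at 20 months (SD, n = 4), and the libraries of each pair of ages overlapped. In organoids it averaged 0.746 ± 0.0264 with knockdown plus TNF-α, 0.774 ± 0.0587 with knockdown, 0.330 ± 0.0372 with TNF-α and 0.357 ± 0.00808 in controls (SD, n = 3). Every library of the knockdown groups, from 0.708 upward, was above every library without the knockdown, up to 0.372. RNA levels do not give enzyme activity, which depends on pro-enzyme activation.

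Between 20 and 3 months, Mmp14 and Timp1 rose, and none of the 10 fell. That is 2 of 10 called, against 22.7% of all genes tested (12% called higher, 10.7% lower). Mmp14, the membrane-anchored activator of pro-MMP2, read 122, 145, 138 and 149 CPM in the libraries at 3 months, 141, 119, 132 and 134 CPM at 11 months and 169, 162, 168 and 163 CPM at 20 months. Every 20-month library was above every younger one. The log2 fold change was 0.26 (SE 0.068, edgeR adjusted p = 0.0182) at 20 over 3 months, and without 3-month replicate 1 the call was lost (edgeR adjusted p = 0.0511). Over 11 months it was 0.33 (SE 0.068, edgeR adjusted p = 0.0114).

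Timp1, the inducible secreted inhibitor, read 1.62, 1.33, 1.75 and 3.98 CPM at 3 months, 3.40, 4.42, 4.80 and 2.79 CPM at 11 months and 7.98, 2.87, 6.88 and 3.93 CPM at 20 months. The ages overlapped, because 3-month replicate 4 was above 20-month replicates 2 and 4. Its log2 fold change at 20 over 3 months was 1.31 (SE 0.39, edgeR adjusted p = 0.0289). Leaving out 3-month replicate 1, 2 or 3 or 20-month replicate 1 or 3 ended the call, with adjusted p up to 0.0919, as did fitting only those ages (0.0654). Without 3-month replicate 4 the difference was 1.78 (adjusted p = 0.00753).

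The collagenase Mmp13 had its lowest mean at 11 months. It read 2.36, 1.49, 3.08 and 3.61 CPM at 3 months, 1.48, 0.333, 1.13 and 0.697 CPM at 11 months and 3.56, 12.96, 4.19 and 5.33 CPM at 20 months. Every 11-month library was below every library of the other ages, and 20-month replicate 2 stood far above the rest. The gap to 3 months was within counting noise, with 1.476 CPM (53 counts) in 11-month replicate 1 and 1.489 CPM (48 counts) in 3-month replicate 2. The difference at 11 over 3 months did not pass by edgeR. Mmp13 rose at 20 over 11 months by 2.83 (SE 0.51, edgeR adjusted p = 0.00891), the largest log2 fold change of the 10 genes in the inner ear. Against 3 months the log2 fold change was 1.30 (SE 0.48, edgeR adjusted p = 0.0665), which did not pass, while the DESeq2 Wald test called it (0.0258). Without 20-month replicate 2 these values were 2.25 (adjusted p = 0.0163) over 11 months and 0.72 (adjusted p = 0.238) over 3 months.

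Gelatinase B, Mmp9, cleaves denatured collagen and type IV collagen and is abundant in neutrophils and osteoclasts. It read 2.83, 2.73, 2.84 and 5.93 CPM at 3 months, 1.70, 1.57, 1.24 and 1.98 CPM at 11 months and 4.74, 18.2, 1.34 and 2.24 CPM at 20 months. Again 20-month replicate 2 was highest, and no age comparison of Mmp9 passed by edgeR with all libraries. The log2 fold change at 20 over 3 months was 0.88 (SE 0.66, edgeR adjusted p = 0.360), and without that library it was -0.37. At 20 over 11 months it was 2.02 (SE 0.69, edgeR adjusted p = 0.0658) with all libraries, 0.78 (adjusted p = 0.228) without 20-month replicate 2, and 2.37 (adjusted p = 0.0162) without 20-month replicate 3. The DESeq2 Wald test called it at 20 over 11 months (adjusted p = 0.00636).

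Marker sums of bone and blood cells also varied between these libraries. The 6 osteoclast markers summed to 61.5 CPM in 20-month replicate 2, against 9.65 to 27.1 CPM in the other 11 inner ear libraries. Neutrophil markers, all 10 detected, summed to 12.8 to 93.3 CPM at 3 months, 11.9 to 30.8 CPM at 11 months and 23.9 to 180.5 CPM at 20 months. In 20-month replicates 1, 2, 3 and 4 the neutrophil sum was 180.5, 66.1, 23.9 and 24.7 CPM. In the same order Mmp9 was 4.74, 18.2, 1.34 and 2.24 CPM, and Mmp13 was 3.56, 12.96, 4.19 and 5.33 CPM. The osteoblast and osteocyte markers summed to 281 CPM in 3-month replicate 4, against 117.7 to 143.5 in the other 3 libraries of that age. Macrophage markers summed to 115 to 146 CPM at 3 months, 221 to 254 CPM at 11 months and 212 to 389 CPM at 20 months, with the lowest 20-month sum in replicate 2. At 20 over 3 months 7 of 7 macrophage markers and 1 of 8 neutrophil markers were called higher, against 12% of all genes. In that comparison 2 of 8 osteoblast and osteocyte markers were called lower, against 10.7% of all genes, and none of 3 osteoclast markers was called. Inner ear fibrocyte and stria markers summed to 7390 to 9912 CPM at 3 months and 4499 to 7125 CPM at 20 months. Of these 6 markers, 1 was called higher and 1 lower. The part of these markers in the levels of Mmp9, Mmp13 and Timp1 was not tested.

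**Figure D2:**
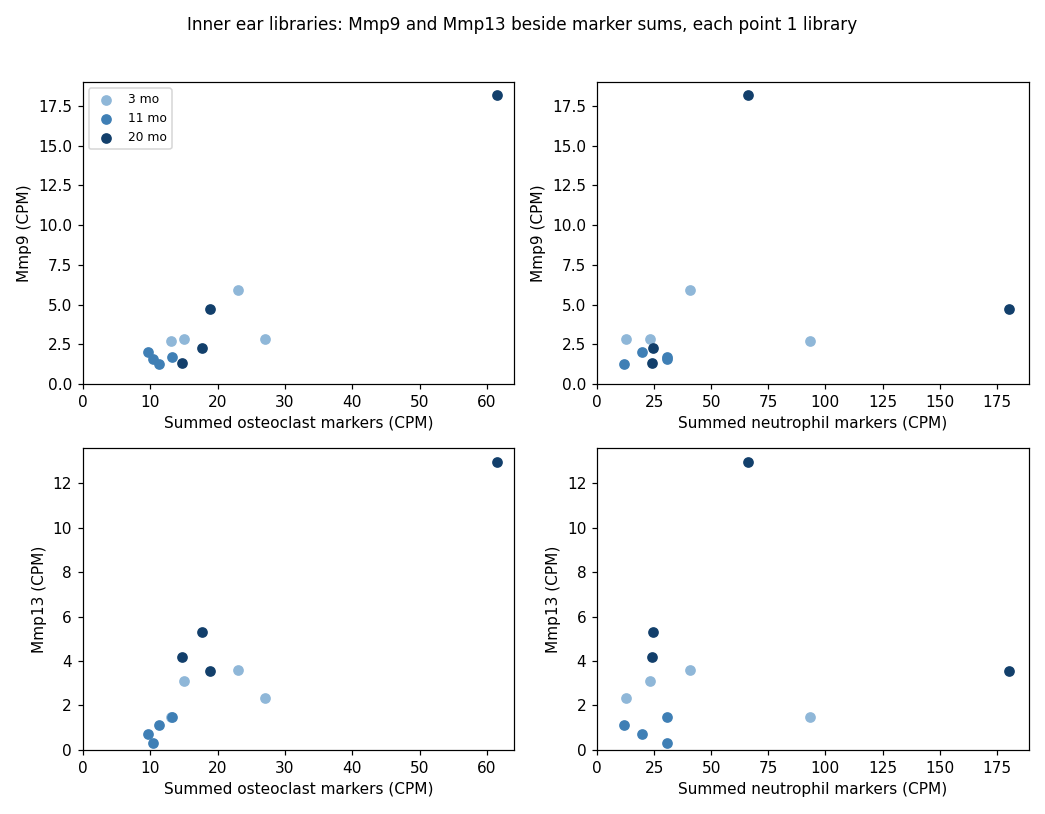
Mmp9 (top) and Mmp13 (bottom) in CPM against the summed CPM of osteoclast markers (left) and neutrophil markers (right), each point 1 inner ear library at 3, 11 or 20 months. The 20-month library with an osteoclast sum of 61.5 CPM holds the highest Mmp9 and Mmp13. The library with a neutrophil sum of 180.5 CPM holds 4.74 CPM of Mmp9 and 3.56 CPM of Mmp13.

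Gelatinase A, Mmp2, had its lowest values at 11 months. It read 39.2, 50.3, 46.3 and 65.7 CPM at 3 months, 35.3, 37.2, 29.9 and 36.7 CPM at 11 months and 54.5, 52.4, 44.7 and 66.4 CPM at 20 months. All 11-month libraries lay below those of the other ages. Mmp2 rose at 20 over 11 months by 0.65 (SE 0.15, edgeR adjusted p = 0.0172), and the call was lost without 11-month replicate 3 (adjusted p = 0.0631) or 20-month replicate 4 (0.0501). Timp2 read 373, 453, 564 and 467 CPM at 3 months, 438, 369, 380.4 and 409.6 CPM at 11 months and 569.6, 582, 432 and 500.1 CPM at 20 months. The ages overlapped, and the difference at 20 over 11 months, 0.38 (SE 0.12, edgeR adjusted p = 0.0486), passed narrowly and was lost without any 1 of 7 of the 8 libraries (all but 20-month replicate 3), with adjusted p up to 0.140, and with DESeq2 size factors (0.0556). In all, 4 of 10 genes were called higher and none lower at 20 over 11 months (Mmp2, Mmp13, Mmp14 and Timp2), against 7.87% called higher and 7.9% lower among all genes (15.8% in all), and libraries did not overlap for 3 of the 10, against 20.5% of all genes. In the same comparison markers were called higher in 2 of 8 for osteoblasts and osteocytes, 3 of 4 for epithelium and 3 of 7 for macrophages. So were 3 of 5 for skeletal muscle, 1 of 3 for osteoclasts and 1 of 6 for fibroblasts, and 1 of 6 supporting cell markers was called lower. The fibroblast sum was 877 to 1139 CPM at 11 months and 1193 to 1494 at 20 months, without overlap, and 985 to 1474 at 3 months. The part of these markers was not tested.

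None of the 10 was called at 11 over 3 months, where 1.56% of all genes were (0.979% higher, 0.58% lower, edgeR). Mmp2 was -0.54 (adjusted p = 0.0920), Mmp13 -1.53 (0.134) and Mmp9 -1.14 (0.400) on the log2 scale, and for these 3 genes the libraries of the ages did not overlap, as for 13% of all genes. At an unadjusted p under 0.05 by edgeR, 2 of the 10 passed, Mmp2 and Mmp13, against 2808 of all 15525 genes tested. The DESeq2 Wald test called Mmp2 (adjusted p = 0.0152) and Mmp13 (0.0308) lower at 11 months, and limma on log2 FPKM called none. Marker sums differed too. Osteoblast and osteocyte markers summed to 80.6 to 101.3 CPM at 11 months and 117.7 to 280.7 at 3 months. Chondrocyte markers gave 102 to 130.8 and 146.9 to 224.9, skeletal muscle 2.14 to 3.12 and 14.5 to 100.3. Inner ear fibrocyte and stria markers gave 4536 to 7367 and 7390 to 9912, with none of 6 called. Called lower were 2 of 8 osteoblast and osteocyte, 5 of 5 muscle and 1 of 6 fibroblast markers. Called higher were 3 of 7 macrophage and 1 of 8 neutrophil markers. Their part was not tested.

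The remaining genes of the set showed small or uncertain differences with age. Mmp3 was sparse, with 0.0589, 0.0621, 0.393 and 0.143 CPM at 3 months, 0.390, 0, 0.264 and 0.558 CPM at 11 months and 1.42, 0.613, 0.428 and 0.966 CPM at 20 months. Its 20-month values were all above its 3-month values, and the log2 fold change was 2.36 (SE 0.85, edgeR adjusted p = 0.0613), which did not pass. It passed without 3-month replicate 3 (adjusted p = 0.0339), in the fit of those ages alone (0.0452), by the DESeq2 Wald test (0.0306) and by limma on log2 FPKM. Timp3, the matrix-bound inhibitor that also blocks the TNF-releasing sheddase ADAM17, averaged 743 ± 88.5 CPM at 20 months and 638 ± 46.1 CPM at 3 months without overlap, and its difference of 0.22 (SE 0.089, edgeR adjusted p = 0.0923) did not pass. Mmp11 (stromelysin-3) was 0.14 and Mmp15 (membrane-anchored) -0.015 at 20 over 3 months, and neither passed in any age comparison. Libraries of 20 and 3 months did not overlap for 3 of 10 genes, against 22% of all genes. The median log2 fold change of the 10 genes was 0.24 at 20 over 3 months, 0.44 at 20 over 11 months and -0.076 at 11 over 3 months, against all-gene medians of 0.011, 0.033 and -0.009 for the same comparisons. The 3 age comparisons share libraries.

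**Figure D3:**
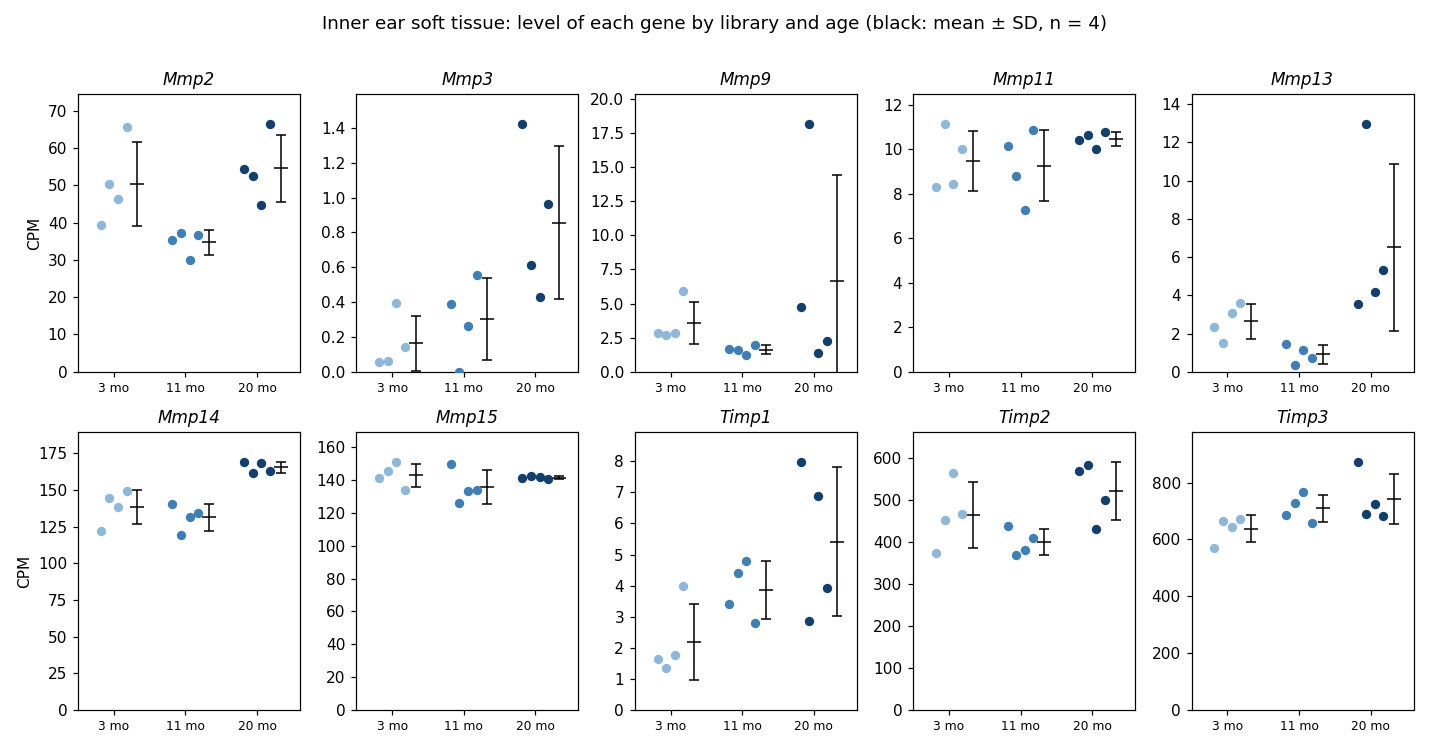
CPM of each gene in each inner ear library at 3, 11 and 20 months (points), with the mean ± SD of each age (black, n = 4). Mmp14 is higher in all 20-month libraries than in any younger one, Mmp2 and Mmp13 are lowest at 11 months, and 1 library at 20 months stands apart for Mmp9 and Mmp13.

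Other genes of the pathway were read against the 12% of all genes called higher and 10.7% called lower at 20 over 3 months. Of the plasminogen system, which generates the plasmin that activates several pro-MMPs, 4 of 5 tested members rose at 20 over 3 months and none fell. Leaving out 3-month replicate 1 or 4 or 20-month replicate 1 gave 2 calls, as did fitting only those ages, and leaving out 20-month replicate 4 gave 1. Plat, the tissue plasminogen activator, averaged 134 ± 15.2 CPM at 20 months and 60.8 ± 4.29 CPM at 3 months (SD, n = 4 each), a log2 fold change of 1.14 (SE 0.081, edgeR adjusted p = 9.37e-06). Plau, the urokinase, was 1.19 (SE 0.32, edgeR adjusted p = 0.0176), and Plaur, the urokinase receptor, 1.62 (SE 0.44, edgeR adjusted p = 0.0197). Of 7 other regulators, 3 rose: Pcolce, which enhances removal of the procollagen C-propeptide (1.13, adjusted p = 0.00135), Lrp1, an endocytic receptor that clears proteases (0.51, 0.00244), and Reck, a membrane-anchored MMP inhibitor (0.49, 0.0368). Of 9 other MMPs tested, Mmp19 rose (1.10, 0.0464) and Mmp24 fell (-0.41, 0.0332). Of 24 ADAM and ADAMTS proteases, 3 rose and 2 fell, near the share over all genes, with the aggrecanase Adamts5 at -0.71 (9.43e-05) and Adamts1 at 1.48 (0.00645). Between 11 and 3 months Plat was already higher, at 102 ± 4.86 CPM at 11 months (0.74 (SE 0.081, edgeR adjusted p = 0.00200)).

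TNF-α, a pro-inflammatory cytokine, changed 8 of the 9 genes that could be tested in organoids. Mmp9, Timp1 and Timp3 rose and Mmp2, Mmp11, Mmp14, Mmp15 and Timp2 fell in TNF organoids relative to controls, against 23.3% of all genes called higher and 24.2% lower (47.5% in all). Mmp13 had at most 2 counts in any organoid library and did not pass the count filter. Mmp9 passed the filter only through the libraries with TNF-α. Mmp9 read 15.8, 10.2 and 6.53 CPM in TNF libraries and 0.0287, 0.0578 and 0.118 CPM in control libraries. The groups lay far apart, and the log2 fold change was 7.25 (SE 0.60, edgeR adjusted p = 3.32e-06). With only 1, 2 and 4 counts in the controls its size is uncertain: without control replicate 3 it was 7.86, and on log2(FPKM + 1), which understates low genes, it was 1.86.

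Timp1 followed the same direction, with 3.92, 2.54 and 1.58 CPM in TNF libraries and 0.287, 0.578 and 0.471 CPM in control libraries, a log2 fold change of 2.58 (SE 0.34, edgeR adjusted p = 5.05e-06). Timp3 read 116, 126 and 137 CPM in TNF libraries and 78.9, 69.2 and 76.5 CPM in control libraries, without overlap (0.76 (SE 0.082, edgeR adjusted p = 3.00e-06)). Adam17, the sheddase that TIMP3 inhibits, also rose, to 106 ± 2.93 CPM with TNF-α, against 63.9 ± 1.93 CPM in controls (0.74, adjusted p = 8.99e-10). Timp3 shares exonic bases with Syn3 on the opposite strand, and Mmp11 with Chchd10. The libraries do not record strand, so reads from the shared bases cannot be assigned to either gene of a pair.

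The genes of the MMP2 activation complex fell together with TNF-α. Mmp2 read 28.1, 22.0 and 17.6 CPM in TNF libraries and 40.5, 41.5 and 45.1 CPM in control libraries (-0.91 (SE 0.18, edgeR adjusted p = 0.00230)). Mmp14 read 403, 427 and 431 CPM in TNF libraries and 544, 537 and 554 CPM in control libraries (-0.37 (SE 0.052, edgeR adjusted p = 8.40e-06)). Timp2 read 215, 179 and 182 CPM in TNF libraries and 335, 342 and 358 CPM in control libraries (-0.84 (SE 0.080, edgeR adjusted p = 2.87e-07)). All 3 were without overlap between the groups. Mmp11 fell by 0.69 on the log2 scale (adjusted p = 2.96e-07) and the log2 fold change of Mmp15 was -0.215 (0.0222). The call for Mmp15 was lost without control replicate 1 or 3 or TNF replicate 1 or 3, with adjusted p up to 0.181. Mmp3 did not pass, at 0.0830 ± 0.0994 CPM with TNF-α and 0.125 ± 0.101 CPM in controls (-0.57 (SE 1.31, edgeR adjusted p = 0.750)).

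**Figure D4:**
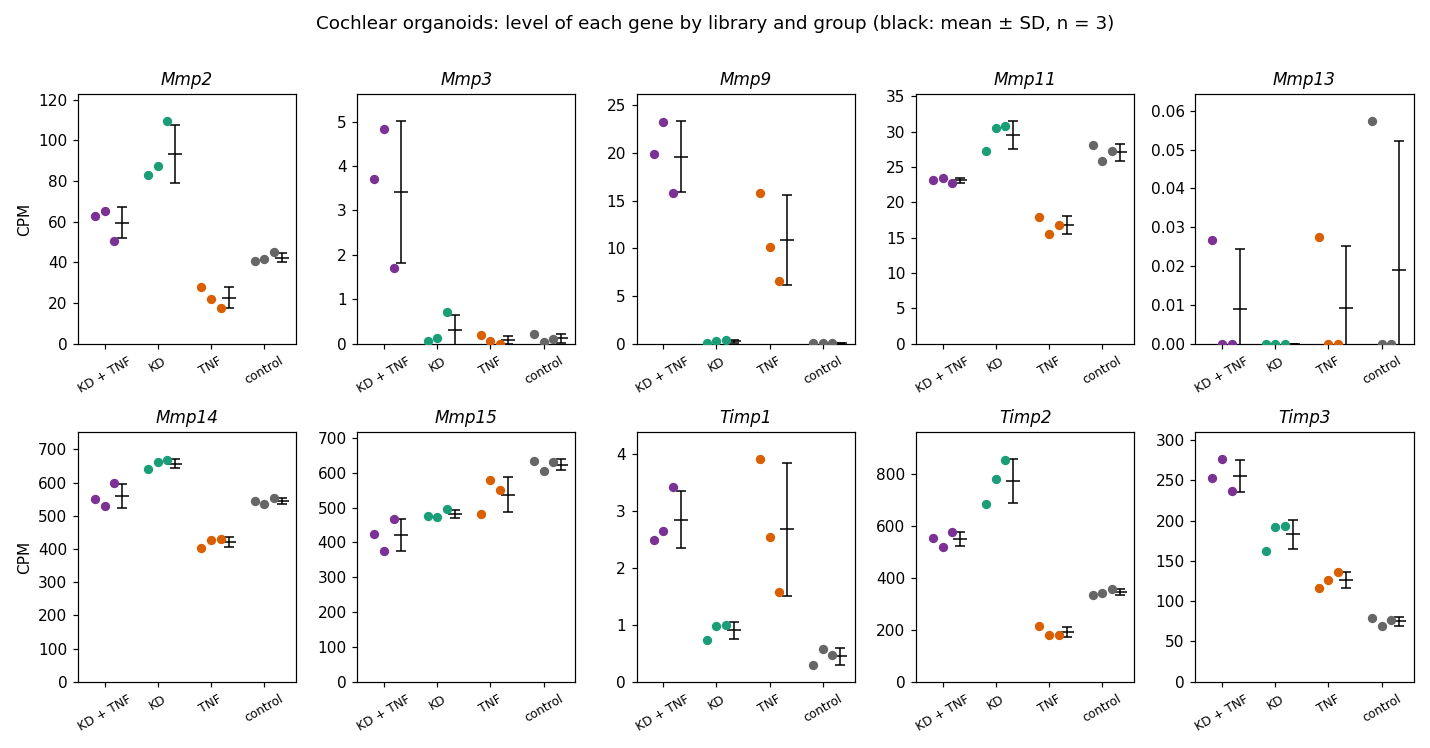
CPM of each gene in each organoid library (points) with the mean ± SD of each group (black, n = 3), from left to right knockdown plus TNF (KD + TNF), knockdown (KD), TNF and control. Mmp9 is near 0 without TNF, Mmp3 is above 1 CPM in the knockdown-plus-TNF libraries alone, and Timp2 and Mmp2 are higher with the knockdown.

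RBM25 knockdown raised 5 of the 9 genes tested and lowered 1. In knockdown organoids Mmp2, Mmp14, Timp1, Timp2 and Timp3 rose relative to controls, Mmp15 fell, and Mmp3, Mmp9 and Mmp11 did not pass, against 24.4% of all genes called higher and 28.2% lower (52.6% in all). All 3 inhibitors are among the 5 that rose. Timp2 read 683, 782 and 852 CPM in knockdown libraries and 335, 342 and 358 CPM in control libraries, without overlap, a log2 fold change of 1.16 (SE 0.080, edgeR adjusted p = 5.09e-09). Timp3 read 163, 192 and 194 CPM in knockdown libraries and 78.9, 69.2 and 76.5 CPM in control libraries (1.29 (SE 0.082, edgeR adjusted p = 8.34e-09)). Each of these inhibitors was more than 2-fold higher, at 2.24-fold for Timp2 and 2.44-fold for Timp3. Timp1 read 0.728, 0.975 and 1.00 CPM in knockdown libraries and 0.287, 0.578 and 0.471 CPM in control libraries (1.01 (SE 0.37, edgeR adjusted p = 0.0272)). Its call was lost without control replicate 1 or 3 or knockdown replicate 2 or 3, with adjusted p up to 0.124.

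Among the proteases, Mmp2 read 82.7, 87.5 and 109.5 CPM in knockdown libraries and 40.5, 41.5 and 45.1 CPM in control libraries (1.14 (SE 0.17, edgeR adjusted p = 3.37e-04)). Mmp14 averaged 658 ± 13.4 CPM with knockdown and 545 ± 8.41 CPM in controls (0.27 (SE 0.051, edgeR adjusted p = 2.17e-04)). Mmp15 averaged 481 ± 12.3 CPM with knockdown and 623 ± 15.8 CPM in controls (-0.37 (SE 0.073, edgeR adjusted p = 3.68e-04)), the reverse of Mmp14, although both encode membrane-anchored enzymes. Mmp11 was 0.13 (0.144) and passed without knockdown replicate 1 (0.0271). Mmp9 had 0.0780, 0.251 and 0.442 CPM in knockdown libraries, against at most 0.118 CPM in controls, and its 1.83 (SE 1.11, edgeR adjusted p = 0.195) did not pass, while the DESeq2 Wald test called it (0.0244).

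TNF-α in knockdown organoids changed all 9 tested genes. Of these, Mmp3 passed the count filter only through the knockdown-plus-TNF libraries, and Mmp9 only through libraries with TNF-α. Mmp3, Mmp9, Timp1 and Timp3 rose and Mmp2, Mmp11, Mmp14, Mmp15 and Timp2 fell in knockdown-plus-TNF relative to knockdown organoids, against 22.8% of all genes called higher and 22% lower (44.8% in all). Mmp3, the activator of pro-MMP9, read 3.72, 4.84 and 1.70 CPM in knockdown-plus-TNF libraries and 0.0520, 0.139 and 0.708 CPM in knockdown libraries. All knockdown-plus-TNF values were above the rest, and the log2 fold change was 3.54 (SE 0.76, edgeR adjusted p = 0.00276). It was 5.13 without knockdown replicate 3, which held 24 of the 31 Mmp3 counts of its group. Mmp9 read 19.9, 23.2 and 15.8 CPM in knockdown-plus-TNF libraries and 0.0780, 0.251 and 0.442 CPM in knockdown libraries (6.27 (SE 0.47, edgeR adjusted p = 1.79e-06)), and 6.89 without knockdown replicate 3. Timp1 averaged 2.85 ± 0.499 CPM with both and 0.902 ± 0.151 CPM with knockdown (1.66 (SE 0.31, edgeR adjusted p = 2.51e-04)). Mmp15 (-0.19, adjusted p = 0.0447) lost its call without knockdown replicate 1, 2 or 3 or knockdown-plus-TNF replicate 1 or 2, with adjusted p up to 0.181.

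Set against TNF-α alone, the knockdown raised 7 of 9 genes, counting Mmp3, which passed the count filter only through the combined group. Mmp2, Mmp3, Mmp9, Mmp11, Mmp14, Timp2 and Timp3 were higher in knockdown-plus-TNF than in TNF organoids, Mmp15 was lower and Timp1 did not pass, against 25.4% of all genes called higher and 26.9% lower (52.3% in all). Mmp3 showed the largest difference. It read 3.72, 4.84 and 1.70 CPM in knockdown-plus-TNF libraries and 0.193, 0.0559 and 0 CPM in TNF libraries, a log2 fold change of 5.30 (SE 0.91, edgeR adjusted p = 4.82e-04), or 6.76 without TNF replicate 1, which held 7 of the 9 counts of its group. Timp2 read 552, 519 and 575 CPM in knockdown-plus-TNF libraries and 215, 179 and 182 CPM in TNF libraries (1.52 (SE 0.081, edgeR adjusted p = 3.17e-10)), and Timp3 read 253, 276 and 237 CPM in knockdown-plus-TNF libraries and 116, 126 and 137 CPM in TNF libraries (1.01 (SE 0.080, edgeR adjusted p = 1.01e-07)). Timp3 was thus highest with both agents, Timp2 highest with the knockdown alone. Mmp2 averaged 59.6 ± 7.75 CPM with both and 22.6 ± 5.27 CPM with TNF-α (1.40 (SE 0.18, edgeR adjusted p = 1.19e-04)).

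Mmp9 was 1.81-fold higher in knockdown-plus-TNF than in TNF organoids, but the libraries overlapped, with 15.8 CPM as the lowest of the combined group and as the highest with TNF-α. Its log2 fold change of 0.85 (SE 0.30, edgeR adjusted p = 0.0380) lost its call without TNF replicate 2 or 3 or knockdown-plus-TNF replicate 1 or 2 (adjusted p up to 0.113). The call was also lost by the DESeq2 Wald test (0.107), with no count filter (edgeR adjusted p = 0.0803) and with only the libraries compared (0.0869). Timp1 averaged 2.85 ± 0.499 CPM with both and 2.68 ± 1.17 CPM with TNF-α, a log2 fold change of 0.089 (SE 0.28, edgeR adjusted p = 0.817). Mmp15 averaged 422 ± 46.1 CPM with both and 537 ± 50.7 CPM with TNF-α (-0.35 (SE 0.073, edgeR adjusted p = 7.47e-04)).

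**Figure D5:**
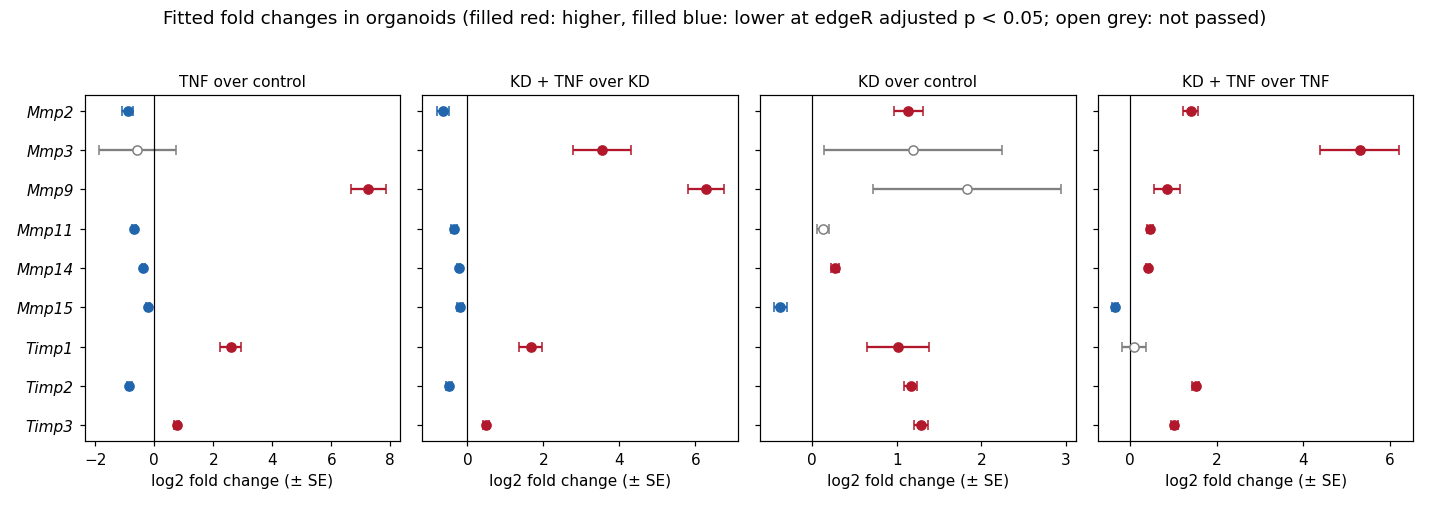
Fitted log2 fold change ± SE of each tested gene in 4 organoid comparisons (panels have their own scales), filled red where called higher, filled blue where called lower and open grey where the edgeR adjusted p was not under 0.05. Mmp9 and Timp1 rise with TNF in both backgrounds and Mmp2, Mmp14 and Timp2 fall, while Mmp2, Mmp14, Timp2 and Timp3 rise and Mmp15 falls with the knockdown in both.

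Whether the TNF-α effect differed with the knockdown was tested as an interaction. Mmp11 alone passed, as 1 of 9, against 12.3% of all genes (7.54% with a positive and 4.81% with a negative difference). It averaged 23.1 ± 0.327 CPM with both, 29.5 ± 1.97 CPM with knockdown, 16.8 ± 1.21 CPM with TNF-α and 27.1 ± 1.15 CPM in controls, and its fall with TNF-α was smaller by 0.33 (SE 0.10, edgeR adjusted p = 0.0373) with the knockdown. The call was lost when any 1 of 9 of the 12 libraries was left out, with adjusted p up to 0.129. Timp2 (0.35, adjusted p = 0.0512) and Timp3 (-0.27, 0.141) did not pass. Timp2 passed without TNF replicate 1 (0.00999), knockdown replicate 3 (0.0163) or knockdown-plus-TNF replicate 2 (0.0383), and by the DESeq2 Wald test (0.0190). Timp3 passed without TNF replicate 1 (0.0406), knockdown replicate 1 (0.0188) or knockdown-plus-TNF replicate 2 (0.0449). For Mmp3, called with TNF-α in the knockdown and not without it, the difference of 4.11 (SE 1.56, edgeR adjusted p = 0.118) did not pass, and passed without knockdown replicate 3 (5.70, 0.0141) and by limma on log2(FPKM + 1) (0.00701). Mmp9 was -0.98 (0.660) and Timp1 -0.92 (0.217).

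The organoid comparisons share groups of libraries, so their values stand side by side and are not independent. The median log2 fold change of the 9 genes was -0.37 for TNF over control, 1.14 for knockdown over control, -0.19 for knockdown plus TNF over knockdown and 0.85 for knockdown plus TNF over TNF, and that of all genes tested between -0.028 and -0.009. Groups did not overlap for 8 of 9 genes between TNF and control (57.5% of all genes), 6 of 9 between knockdown and control (61.9%), 9 of 9 between knockdown plus TNF and knockdown (53.2%) and 7 of 9 between knockdown plus TNF and TNF (57.7%). Markers of cells known to carry MMP9 were read in the organoids. The osteoclast sum was 3.05 to 4.68 CPM with knockdown plus TNF-α, 1.95 to 3.72 with knockdown, 1.15 to 1.45 with TNF-α and 1.04 to 1.59 in controls. The 1 osteoclast marker tested was called higher with the knockdown (1.14) and with knockdown plus TNF over TNF (1.80). Of all genes 24.4% and 25.4% were called higher there. The part of osteoclast markers in the Mmp9 values was not tested. Of 10 neutrophil markers, 7 were at 0 in every library, among them S100a8, S100a9 and Mpo, and of 7 macrophage markers Adgre1, C1qa and Fcgr1 were at 0. Mpeg1, a pore-forming protein of macrophages, had 71 counts over the knockdown-plus-TNF libraries and 1 over the knockdown libraries, which is 69.2-fold (95% limits from counting 12.0 and 2770), and 5 counts with TNF-α and 0 in controls. The macrophage sum was 1.89 to 2.25 CPM with knockdown plus TNF-α, 1.003 to 1.33 with knockdown, 0.862 to 1.57 with TNF-α and 1.06 to 1.59 in controls, and its part in the Mmp9 values was not tested. The neutrophil sum of 20.9 to 23.1 CPM with knockdown plus TNF-α, 1.04 to 1.56 with knockdown, 6.62 to 8.83 with TNF-α and 0.660 to 0.883 in controls came almost wholly from Camp, which encodes an antimicrobial peptide. Osteoblast markers summed to 64.7 and 113.8 CPM in knockdown-plus-TNF replicates 1 and 2 and to 6.60 CPM in replicate 3, the library lowest in Mmp3. Most of that sum was 1 gene, Ibsp (bone sialoprotein), at 52.7, 98.0 and 0.458 CPM in those libraries, while the osteoblast markers Bglap and Dmp1 had 4 and 5 counts over all 3. Without replicate 3 the Mmp3 difference was 3.84 over knockdown and 5.62 over TNF. What these marker levels contribute to the Mmp3 values was not tested.

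Other genes of the system were read against 47.5% of all genes called with TNF-α and 52.6% with the knockdown. Of 7 other MMPs tested with TNF-α, Mmp7 (matrilysin) and Mmp28 (epilysin) rose and Mmp17 fell. With the knockdown Mmp24 (1.81, edgeR adjusted p = 8.34e-07) and Mmp17 (1.15, 0.0314) rose and Mmp28 fell (-1.80, 8.59e-07). Mmp7, from the same chromosome 9 cluster as Mmp3, had 135 counts over the knockdown-plus-TNF libraries and 0 over the knockdown libraries, at least 43.8-fold higher, and 40 counts with TNF-α and 3 in controls, which is 13.1-fold (95% limits from counting 4.16 and 65.97). Of 6 other regulators, A2m, a protease-trapping plasma protein, rose with TNF-α to 6.57 ± 4.67 CPM, against 0.261 ± 0.0558 CPM in controls (4.64 (SE 0.64, edgeR adjusted p = 2.66e-04)), while Lrp1 (-0.97, 6.95e-07) and Bsg, the MMP inducer EMMPRIN (-0.49, 3.50e-05), fell. With the knockdown 5 of these 6 rose and 1 fell. Bsg rose to 2691 ± 205 CPM, against 1164 ± 14.5 CPM in controls (1.21 (SE 0.076, edgeR adjusted p = 4.58e-10)), and Lrp1 rose by 0.97 on the log2 scale (4.38e-07). A2m also rose with the knockdown alone, to 2.68 ± 0.386 CPM (3.34 (SE 0.70, edgeR adjusted p = 0.00309)). Of 23 ADAM and ADAMTS genes, 8 rose and 8 fell with TNF-α, and 12 rose and 5 fell with the knockdown. Adamts2, a procollagen N-proteinase, was -2.60 (SE 0.10, edgeR adjusted p = 4.08e-12) with TNF-α and Adamts12 2.38 (SE 0.14, edgeR adjusted p = 7.04e-11) with the knockdown. Of the 3 plasminogen-system genes tested, Plat fell (-0.19, 0.0158) with TNF-α, a call lost without control replicate 1 or TNF replicate 2 or 3, and Serpine2 rose with the knockdown (1.59, 5.17e-05). Plat, at 259 ± 8.36 CPM with both, 427 ± 18.4 CPM with knockdown, 346 ± 37.3 CPM with TNF-α and 395 ± 3.38 CPM in controls, fell more with TNF-α in the knockdown (-0.53 (SE 0.087, edgeR adjusted p = 6.61e-04) for the interaction).

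Genes with the most similar pattern were named for the gene of smallest p in each setting, by Pearson correlation of log2(CPM + 1) over 12 libraries, as a description. For Timp2 in organoids they were Sod3 (r = 0.997), Anpep (0.994), Scg5 (0.993), Lmx1a (0.991) and Kirrel (0.991) out of 12345 genes, and the 12 libraries fall into 4 groups that set much of that likeness. For Mmp13 in the inner ear they were AW146154 (0.942), Etv6 (0.923), Fbn2 (0.918), Cpxm2 (0.916) and Vezf1 (0.908) out of 13889 genes, and 20-month replicate 2 is the highest library for Mmp13.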

How the data were processed

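RNA was measured by bulk sequencing in 24 libraries, unstranded per the labels' kit. Per the submitters' processing notes, reads went through Trimmomatic, HISAT2, HTSeq and DESeq2 on mm10; no version or setting was given. The count tables as deposited hold whole, unnormalized counts per gene (18440 genes in the inner ear, 25190 in organoids), and the other deposited tables hold FPKM, the authors' scaling by gene length and depth. No column of per-sample values was left without a sample.

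Each count table was fitted whole in edgeR 4.0.16 (R 4.3.3) with TMM factors, filterByExpr (15525 and 15888 genes kept), 1 coefficient per group and the robust quasi-likelihood F-test, two-sided, Benjamini-Hochberg adjusted over all genes tested. The SE is the log2 fold change over the square root of F. The biological coefficient of variation was 19.8% in the inner ear and 8.04% in organoids, and the total counts per library limit precision little except for genes of few counts. Of the 10 genes 10 passed the filter in the inner ear and 9 in organoids. In organoids Mmp3 passed only through the knockdown-plus-TNF libraries and Mmp9 only through the libraries with TNF-α. Their being tested, and so their part in the counts of called genes, thus depended on the groups where they were high. There were 8 comparisons, the last an interaction (TNF effect in knockdown organoids minus TNF effect in the others). For a group of 0 counts a fold is a bound against 3 counts over the group, and intervals cover counting error only. No pair of replicates agreed within sampling noise. The fit was tested on simulated data.

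Alternatives were DESeq2 1.42.0 size factors and Wald test, no count filter, only the libraries compared, replicate number as a block, limma 3.58.1 on log2(FPKM + 1) and log2(FPKM + 0.1), and leaving out each library. Members, marker lists and gene lists were chosen with earlier results of these data known. All 10 genes are named, with Rbm25 and Tnf as checks. From each other list, genes were named from among the up to 3 called genes of smallest p in each of 4 comparisons, and not all of those are reported. The 4 were 20 versus 3 months, TNF versus control, knockdown versus control and the interaction. Mmp7 and Plat in further comparisons, and Adam17 and Camp, were added after their values were seen. From the gene lists, 1 gene is not reported here and is left out of their counts. Positions and promoters are from RefSeq (GRCm38.p6, the build mm10).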

Additional observations from a re-analysis of the deposited data

Results flagged for a closer look

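Within groups of 4 libraries, 1 value stood apart from the others in 5 of the 45 groups examined, where chance gives about 1 in 20. Mmp9 was highest in 3-month replicate 4, at 5.93 CPM, against 2.73 to 2.84 CPM in the other 3 libraries. Timp1 was highest in the same library, at 3.98 CPM, against 1.33 to 1.75 CPM. That library also had the highest osteoblast and osteocyte marker sum, 280.7 CPM. At 20 months, replicate 2 had the highest osteoclast marker sum, 61.5 CPM, and the lowest macrophage marker sum, 212.5 CPM, against 377.5 to 389 CPM in the other 3 libraries.

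The TNF-α effect differed with the knockdown by the interaction test for 5 named genes. Mmp11 had a difference of 0.33 on the log2 scale (edgeR adjusted p = 0.0373). Plat was at -0.53 (6.61e-04). Adamts2 averaged 23.7 ± 2.26 CPM with knockdown plus TNF-α, 65.4 ± 7.17 CPM with knockdown, 12.9 ± 1.53 CPM with TNF-α and 78.2 ± 2.15 CPM in controls, a difference of 1.13 (5.23e-05). Adamts9 averaged 424 ± 29.7 CPM with knockdown plus TNF-α, 468 ± 16.0 CPM with knockdown, 286 ± 8.46 CPM with TNF-α and 249.8 ± 0.718 CPM in controls, a difference of -0.34 (0.00506). Adam8, a sheddase of leukocytes and other cells, averaged 9.78 ± 2.79 CPM with knockdown plus TNF-α, 2.80 ± 0.173 CPM with knockdown, 48.0 ± 16.1 CPM with TNF-α and 3.65 ± 0.469 CPM in controls, a difference of -1.91 (0.0196).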

How the results depend on the processing

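For the 10 genes, 75 fold changes were recomputed in 1076 alternative values. Of these 995 kept direction and call, 57 (of 9 results) lost the call, 24 (of 10) gained one, none reversed a called direction, and 22 uncalled values changed sign. Genes of the set called at 20 over 3 months numbered 2, with 4 by the DESeq2 Wald test, 1 with the replicate block and 0 to 2 with a library left out. At 11 over 3 months the DESeq2 Wald test called 2 of them and leaving out a library 0. Leaving out a library gave 2 to 5 at 20 over 11 months, 7 to 8 for TNF over control, 5 to 7 for knockdown over control, 8 to 9 for knockdown plus TNF over knockdown and 7 to 8 for knockdown plus TNF over TNF. For the interaction the number was 0 with no count filter, 2 by DESeq2, 0 with the replicate block, 2 by limma with either pseudocount, and 0 to 3 with a library left out.

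Over all genes, leaving out a library gave 2211 to 3951 calls at 20 over 3 months, 787 to 3632 at 20 over 11 months and 1221 to 2337 for the interaction. At 11 over 3 months (242 calls) it gave 38 to 137, DESeq2 1031, the replicate block 130, limma on log2(FPKM + 1) 112 and only the libraries compared 797. The cause of these differences was not tested. Replicate numbers showed no steady pairing of the libraries (correlation of deviations -0.27 to 0.23 over 12 inner ear pairs and -0.054 to 0.30 over 18 organoid pairs, 3 and 2 of them over 0.1). The 2 organoid pairs over 0.1 were both control with knockdown, at 0.298 for replicate 1 and 0.233 for replicate 3, with 0.024 for replicate 2. A shared origin of those libraries was not tested. Under the block, the calls of Timp1 at 20 over 3 months (adjusted p = 0.0585), Timp2 at 20 over 11 months (0.0996) and Mmp11 in the interaction (0.0550) were lost. Genes of few counts (Mmp3, Mmp9 and Timp1 in organoids) have uncertain fold sizes.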
